A study of Mus musculus with 93 samples.

Results

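The genes described here build the 2 sides of the chemical synapse in the mouse brain. They are 25 presynaptic genes, from Syp to Nrxn3, and 13 postsynaptic genes, from Dlg1 to Camk2b, taken from a written list of symbols and matched to the count files by Ensembl identifier. These 38 genes are a small part of the 47729 identifiers counted and of the 23702 genes tested. All 38 passed the count filter in full, with between 643 reads (the lowest count of any member in any mouse) and 238288 reads (the highest).

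The study sequenced RNA of the left brain hemisphere of 93 mice aged 8 months, 1 library per mouse, and its labels also call the source whole brain. The mice came from the laboratory strain C57BL/6J (B6) and the wild-derived strains CAST (CAST/EiJ), PWK (PWK/PhJ) and WSB (WSB/EiJ), and were either wild type (WT) or carried APP/PS1. Each combination of strain, genotype and sex held 6 mice, except 4 APP/PS1 females in B6 and 5 WT females in PWK, so that the WT groups held 12 B6, 12 CAST, 12 WSB and 11 PWK mice and the APP/PS1 groups 10, 12, 12 and 12. The carriers were hemizygous, the WT mice were their littermates, and the transgenes had been backcrossed from B6 into each wild-derived strain for several generations, so that B6 sequence around the insertion can remain. No mouse received a treatment or drug by the labels. The paper states that PWK APP/PS1 mice were housed singly earlier than the other mice because of aggression. In PWK, genotype and length of single housing therefore cannot be told apart.

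At a synapse, vesicles filled with transmitter are held near the membrane by synapsins and Rab3a, docked at the active zone by Rims, Unc13a and Pclo, and fused by the SNARE proteins Snap25, Stx1a and Vamp under the control of synaptotagmins and complexins. Across the cleft, neurexins bind neuroligins, and behind these the Dlg, Shank and Homer scaffolds hold glutamate receptors and the kinase subunits Camk2a and Camk2b in the postsynaptic density. Synapse loss is a known feature of Alzheimer's disease, and in a hemisphere measured in bulk, fewer cells of a type and less RNA per cell cannot be told apart.

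The libraries were deep, with 53969802 to 106016200 reads counted on genes and a median of 66559575. Xist exceeded the summed Y-linked genes in every labelled female and stayed below them in every male, 93 of 93 mice. A single mouse stood apart within its sex: PWK APP/PS1 Female 3 had 1.45 CPM of Xist, where the other 5 females of its group had 1034 to 1181 CPM, and none of these 6 exceeded 0.251 CPM of Y-linked RNA. In that mouse the X-linked members Syp (569 CPM), Syn1 (522 CPM) and Dlg3 (169 CPM) lay below the other 5 females, whose lowest values were 585, 530 and 176 CPM, and Nlgn3 (56.0 CPM) lay within their range of 52.5 to 64.8 CPM. Its values lay within the ranges of WT PWK mice of both sexes for Syp (512 to 622 CPM), Syn1 (451 to 569 CPM) and Dlg3 (149 to 176 CPM). Shank3, which is not on X, was also lowest in this mouse (280 CPM, nearest other mouse 303 CPM). The share of all genes below the other females was not counted. Without PWK APP/PS1 Female 3, the 3 calls of a response that include this mouse were kept. App was higher in each of the 46 APP/PS1 mice than in every WT mouse of the same strain. By their serial numbers the B6 libraries form a set of their own and the others 3 sets that mix the wild-derived strains, so a difference from B6 and a difference of library set cannot be told apart, and the same holds for the use of a custom genome for each wild-derived strain. Reads mapping to several places made up 9.89% of the total in B6 and 9.69% in WSB on average, but 12.0% in CAST and 11.9% in PWK.

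In WT brain the most abundant members, per kb of exon and averaged over strains, were Snap25 and the complexins, which act in vesicle fusion. Snap25, the SNARE of the plasma membrane anchored by palmitoyl groups, reached 316 CPM per kb. The complexins that clamp and promote fusion followed, with 287 CPM per kb for Cplx1 and 261 CPM per kb for Cplx2, then the kinase subunit Camk2a (253 CPM per kb) and the vesicle SNARE Vamp2 (233 CPM per kb). At the other end stood Syn3, the least abundant synapsin, with 1.69 CPM per kb, below Homer2 (6.40 CPM per kb), Nlgn3 (6.49 CPM per kb) and Nlgn1 (6.75 CPM per kb). The annotation overlaps other genes over more than 10% of the exon bases in 4 members, and since neither the strandedness of the kit nor the counting option was stated, reads there are uncertain. Syp shares 16.8% with the antisense Gm14703 and Syt4 14.5% with the antisense Gm26658, both of which had few reads. Nlgn3 shares 41.2% with Gm21986 on the same strand. Syn3 (21.1 CPM) shares 14.1% with Timp3, a more abundant gene on the opposite strand (85.5 CPM). The members lie on 17 chromosomes, with 4 on X.

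WT strains differed in most members, but by little. The test over the 4 strains passed for 24 of 25 presynaptic and 10 of 13 postsynaptic genes, where 84.5% of all genes passed, so that the share is near the background. Syt1, Dlg1, Dlg4 and Homer1 did not pass. The gap between the highest and the lowest strain had a median log2 of 0.16 in the presynaptic genes (0.06 to 0.41) and 0.20 in the postsynaptic genes (0.06 to 0.39). Over all genes tested this median was 0.54, and it was 0.22 over the 7937 genes at least as abundant as the least abundant member. Among the presynaptic genes that passed, PWK was the highest strain for 11 and B6 the lowest for 11. In the postsynaptic genes, CAST and WSB were each the highest for 4, and PWK was the lowest for 4. The order of the strains was not counted over all genes, so whether these counts are particular to the members was not tested.

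**Figure D1:**
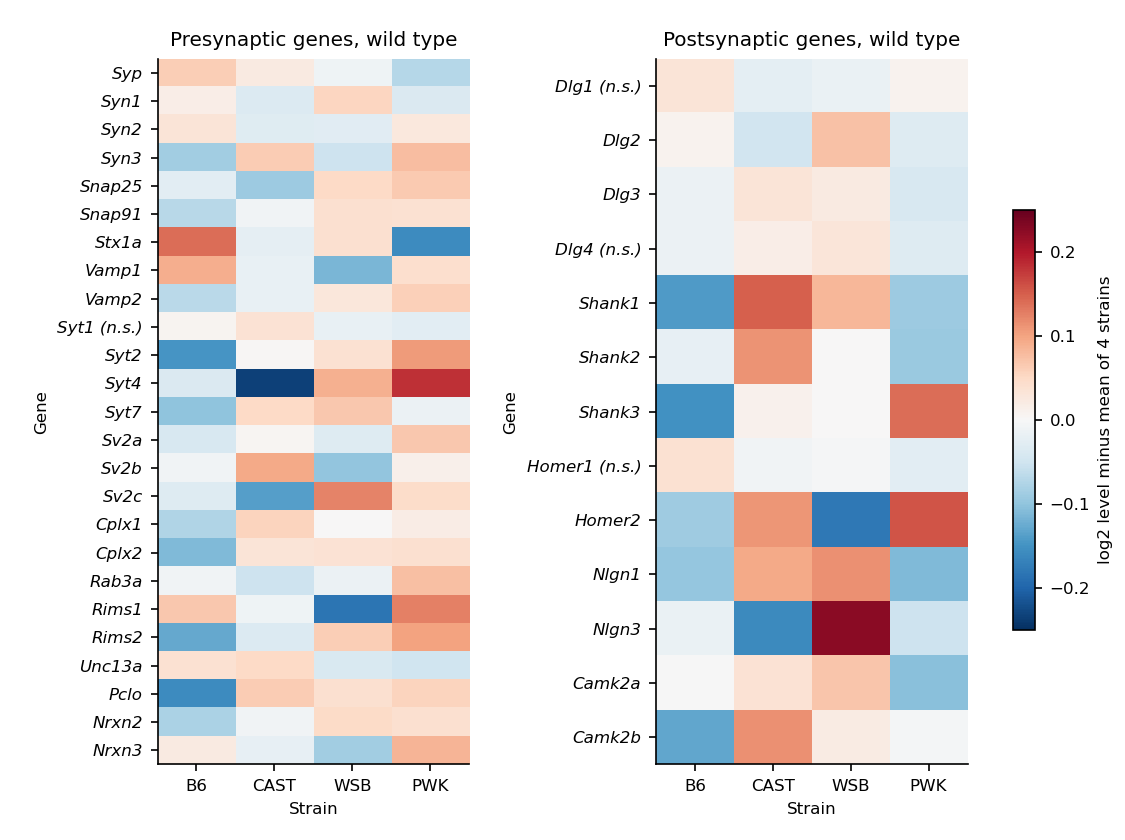
Fitted log2 level of each gene in WT mice of each strain, minus the mean of the 4 strains. Red is above that mean and blue below it, and genes marked n.s. did not pass the test over the strains.

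Among members that passed against B6, more were higher than lower in each wild-derived strain. CAST exceeded B6 in 9 presynaptic genes and fell below it in 4, and in 6 and 1 postsynaptic genes, beside 30.3% of all genes higher and 31.1% lower. For WSB the counts were 10 and 5 presynaptic and 5 and 0 postsynaptic genes (all genes 23.2% and 24.3%). PWK had 15 higher and 3 lower presynaptic genes but 3 and 1 postsynaptic genes (all genes 28.8% and 30.4%), and of all 13 postsynaptic genes, passing or not, 4 were higher and 9 lower in PWK. These comparisons share the same B6 mice. Among them the median absolute log2 difference of the presynaptic genes was 0.08 (CAST), 0.10 (WSB) and 0.09 (PWK), and that of the postsynaptic genes 0.13, 0.07 and 0.05. All genes had 0.27, 0.20 and 0.27, with genes of low abundance included. B6 also carried more RNA of the oligodendrocyte list than each of the 3 strains in 11 of 11 genes, which is given with the other lists further on.

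The wild-derived strains also differed from each other in the members. CAST was above PWK in 4 presynaptic genes and below it in 9, with all genes at 27.8% and 27.1%, yet above it in 6 postsynaptic genes and below in 2. WSB was above PWK in 3 and below in 5 presynaptic genes, with all genes at 27.5% and 27%, and above in 7 and below in 2 postsynaptic genes. CAST and WSB differed in both directions, with 4 higher and 6 lower presynaptic genes in CAST and 3 higher and 2 lower postsynaptic genes (all genes 27.1% and 27.2%). The CAST, PWK and WSB mice each stand in more than 1 of these comparisons.

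Of the synaptotagmins, Syt4, which is found on dense-core vesicles, had the largest strain gap of all members. Its lowest, median and highest WT values were 172, 191 and 207 CPM in B6 and 131, 160 and 204 CPM in CAST. In WSB they were 180, 203 and 239 CPM and in PWK 190, 223 and 235 CPM. All but 1 of the 12 CAST mice lay below every PWK mouse, 10 lay below every WSB mouse and 8 below every B6 mouse. CAST was lower than PWK by a log2 difference of -0.41 (SE 0.0456, edgeR adjusted p = 3.72e-13) and lower than WSB by -0.32 (edgeR adjusted p = 1.55e-09). Within the 3 sets of libraries the CAST and PWK means differed by -0.49, -0.45 and -0.35. PWK exceeded B6 in Syt4 by 0.22 (edgeR adjusted p = 2.34e-05), with 0.14 in males alone.

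Syt2, the fast calcium sensor of many brainstem, cerebellar and parvalbumin neurons, was lowest in B6. WT B6 mice ran from 221 through a median of 299 to 345 CPM, and PWK mice from 286 through 355 to 387 CPM. CAST (205, 322 and 408 CPM) and WSB (288, 336 and 361 CPM) lay between in their medians, and all 4 strains overlapped. PWK was above B6 by 0.25 (SE 0.0672, edgeR adjusted p = 0.000756), which females alone did not pass (0.21, edgeR adjusted p = 0.101). Syt7, a slow calcium sensor, was also lowest in B6, with WSB above it by a log2 difference of 0.17. Syt1, the main sensor of fast release in the forebrain, did not differ among the strains by the test (edgeR adjusted p = 0.292), and its gap was 0.06.

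The vesicle glycoproteins of the Sv2 family went different ways. Sv2c, which is strong in basal ganglia and brainstem, had lowest, median and highest values of 106, 153 and 178 CPM in B6, 117, 141 and 163 CPM in CAST, 133, 158 and 208 CPM in WSB and 129, 167 and 175 CPM in PWK. The 4 ranges of Sv2c overlapped, and 5 of the 12 CAST mice lay below every WSB mouse. CAST was below WSB by -0.26 (SE 0.0681, edgeR adjusted p = 0.000704), and by -0.38, -0.13 and -0.35 within the 3 library sets. Sv2b, abundant in cortex and hippocampus, was higher in CAST than in WSB, by 0.19 (edgeR adjusted p = 2.13e-05). For Sv2a, the form present in nearly all synapses, PWK exceeded B6 by 0.11 (edgeR adjusted p = 1.32e-05).

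Of the synapsins and other vesicle proteins, Syp (synaptophysin) was highest in B6 and lowest in PWK, a gap of 0.13. Syn1, Syn2 and Syn3 had gaps of 0.09, 0.06 and 0.16, with WSB, B6 and PWK highest in turn. Without 2 B6 mice, 1 of them WT, the difference of PWK from B6 was 0.11 for Syn3 (edgeR adjusted p = 0.0412) and -0.09 for Syp (edgeR adjusted p = 0.00018). The GTPase Rab3a was highest in PWK, 0.13 above CAST. Snap91, a clathrin adaptor that returns vesicle membrane, was lowest in B6, 0.11 below WSB.

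Among the fusion proteins the strongest strain gap was in Stx1a, the plasma membrane syntaxin. Its values were 109, 120 and 156 CPM in WT B6, 96.0, 111 and 123 CPM in CAST, 99.3, 116 and 136 CPM in WSB and 87.2, 100 and 113 CPM in PWK. All strains overlapped somewhat, and 8 of the 11 PWK mice lay below every B6 mouse. PWK was below B6 by -0.30 (SE 0.0537, edgeR adjusted p = 1.41e-06). WSB was above PWK by 0.20 (edgeR adjusted p = 0.0012), a difference of 0.05 (edgeR adjusted p = 0.365) once the hindbrain and the cortex and hippocampus markers were covariates. Its partner Snap25 was lowest in CAST, 0.16 below PWK. Vamp2, the vesicle SNARE of most forebrain synapses, was lowest in B6, 0.13 below PWK, whereas Vamp1, the SNARE of brainstem and spinal synapses, was highest in B6 and lowest in WSB. The Vamp1 difference between WSB and B6, -0.21 (edgeR adjusted p = 0.0103), was -0.03 (edgeR adjusted p = 0.538) with the same covariates. These covariates were added after seeing the data, and genes of both marker lists differ between the WT strains themselves. The part of brain regions in the gaps of Stx1a and Vamp1 was therefore not tested by these fits. Both complexins were lowest in B6, Cplx1 by 0.13 below CAST and Cplx2 by 0.15 below PWK.

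At the active zone, Rims1, which ties vesicles to calcium channels, was lowest in WSB. WT values were 193, 213 and 229 CPM in WSB and 250, 260 and 285 CPM in PWK, and every WSB mouse lay below every PWK mouse. B6 (184, 249 and 287 CPM) and CAST (220, 239 and 256 CPM) had medians between them, and their ranges reached into that of WSB. WSB was below PWK by -0.31 (SE 0.0380, edgeR adjusted p = 2.96e-11), and the means within the 3 library sets differed by -0.35, -0.29 and -0.34. It was also below B6, by -0.25 (edgeR adjusted p = 2.2e-08), with -0.16 in males alone.

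Rims2, its close relative, was lowest in B6 (63.5, 97.5 and 107 CPM) and highest in PWK (105, 112 and 125 CPM). CAST had 96.5, 103 and 111 CPM and WSB 98.0, 110 and 119 CPM. In Rims2, 9 of the 11 PWK mice exceeded every B6 mouse, while the wild-derived strains overlapped each other. PWK was above B6 by 0.23 (SE 0.0433, edgeR adjusted p = 4.16e-06), with 0.15 in females alone. Pclo, a giant scaffold of the active zone, was lower in B6 than in every other strain, with CAST above it by 0.22, or by 0.16 without 2 B6 mice. Unc13a, which primes vesicles for fusion, had a gap of only 0.10. Of the neurexins, the presynaptic adhesion receptors, Nrxn2 was lowest in B6 (0.13 below WSB) and Nrxn3 lowest in WSB (0.17 below PWK).

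Among the postsynaptic genes the widest gap was in Nlgn3, a neuroligin that binds neurexins across the cleft. WT values were 64.6, 70.1 and 74.5 CPM in WSB and 45.2, 54.4 and 57.6 CPM in CAST. No CAST mouse reached the lowest WSB mouse. B6 (55.2, 58.2 and 70.3 CPM) and PWK (53.0, 56.8 and 65.0 CPM) overlapped both. CAST was below WSB by -0.39 (SE 0.0346, edgeR adjusted p = 3.25e-17), and by -0.35, -0.43 and -0.33 within the 3 library sets. WSB was also above PWK by 0.28 (edgeR adjusted p = 9.26e-11) and above B6 by 0.24 (edgeR adjusted p = 5.22e-09). Nlgn3 lies on X, and the reads over the bases it shares with Gm21986 were not examined apart. Its relative Nlgn1, of excitatory synapses, was higher in CAST and WSB than in B6 and PWK, with a gap of 0.22.

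The scaffold Homer2, which links metabotropic glutamate receptors to Shank proteins, was lowest in WSB (61.6, 71.8 and 77.8 CPM) and highest in PWK (77.4, 86.0 and 108 CPM). CAST (70.5, 85.0 and 101 CPM) stood near PWK, and B6 spread from 55.2 through 77.7 to 86.7 CPM. Apart from a single mouse, the 12 WSB mice lay below every PWK mouse. WSB was below PWK by -0.34 (SE 0.0646, edgeR adjusted p = 5.25e-06; -0.47, -0.34 and -0.23 within the library sets), and CAST above WSB by 0.29 (edgeR adjusted p = 5.85e-05). Homer1, the most studied form, did not pass the test over strains (edgeR adjusted p = 0.956), and its spread between mice of a group was the widest of all members, an SD of 0.30 in log2.

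The Shank genes, whose proteins join Homer to the Dlg complex, each had their own order. For Shank1 the WT values were 456, 656 and 683 CPM in B6, 709, 779 and 863 CPM in CAST, 689, 740 and 792 CPM in WSB and 579, 664 and 729 CPM in PWK. Every CAST and every WSB mouse exceeded every B6 mouse. CAST was above B6 by 0.29 (SE 0.0386, edgeR adjusted p = 2.98e-10) and WSB by 0.22 (edgeR adjusted p = 8.3e-07). Shank3 ran from 215 through 253 to 276 CPM in B6 and from 280 through 308 to 348 CPM in PWK, with CAST (247, 286 and 303 CPM) and WSB (250, 282 and 306 CPM) between. The B6 and PWK mice did not overlap. PWK was above B6 by 0.29 (SE 0.0339, edgeR adjusted p = 2.58e-12), with means apart by 0.19 in females and 0.39 in males. Shank2 was highest in CAST and lowest in PWK, a gap of 0.20.

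Gaps were small in the Dlg genes, which encode membrane-associated guanylate kinases. Dlg4 (PSD-95) and Dlg1 (SAP97) did not pass the test over strains (edgeR adjusted p = 0.104 and 0.156), and Dlg2 and Dlg3 had gaps of 0.12 and 0.07. Of the kinase subunits, Camk2b was 0.24 higher in CAST than in B6, and Camk2a 0.17 higher in WSB than in PWK.

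**Figure D2:**
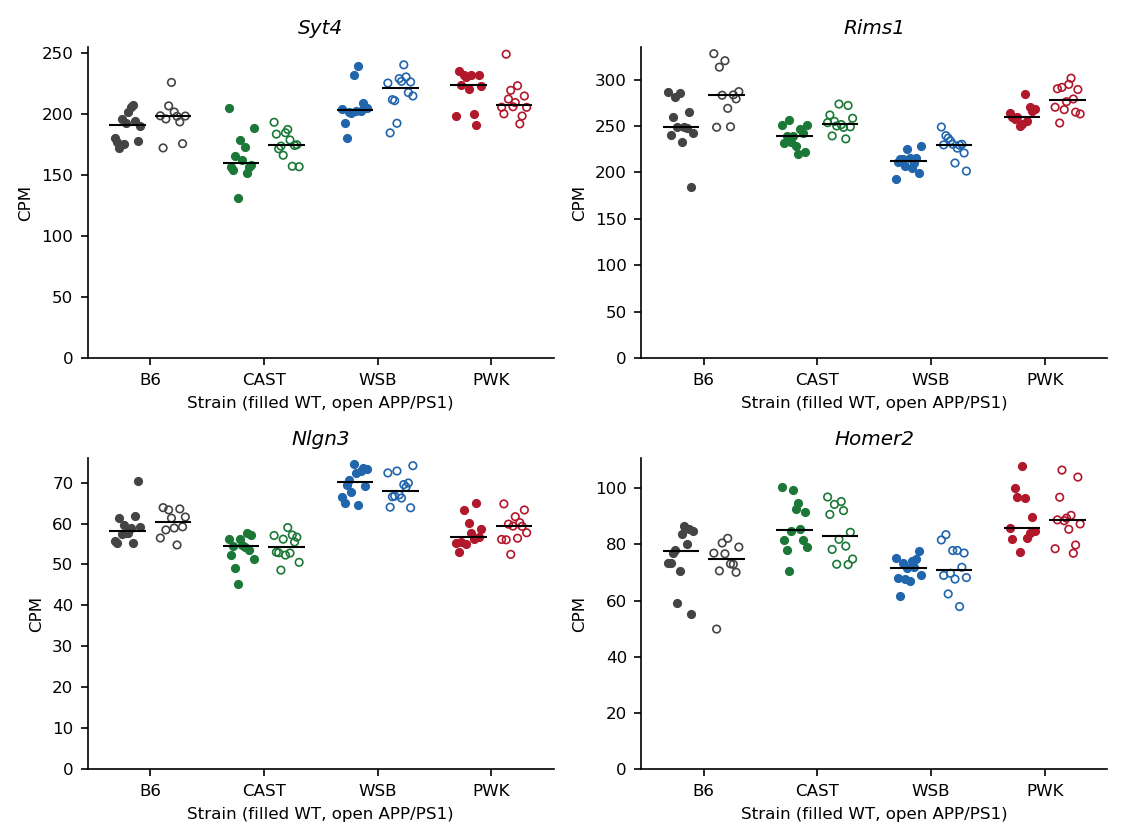
Level of Syt4, Rims1, Nlgn3 and Homer2 in each mouse, in CPM scaled to TMM library size. Filled points are WT mice, open points APP/PS1 mice, and bars are medians of each group.

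Genes of the same structures outside the list of members moved in both directions as well. Of 52 other presynaptic genes, 44 differed among the strains, and of 40 other postsynaptic genes, 29, where 84.5% of all genes did. PWK exceeded B6 in 22 of the other presynaptic genes and fell below it in 11, beside 28.8% and 30.4% of all genes. In the other postsynaptic genes these counts were 9 and 14. The largest difference was in Cplx3, a complexin of ribbon and some cortical synapses, which CAST had below WSB by -1.71 (SE 0.111, edgeR adjusted p = 7.19e-25). Mpp3, a scaffold of the guanylate kinase family, was above B6 by 0.95 (SE 0.0418, edgeR adjusted p = 6.55e-36) in PWK and by 0.57 (edgeR adjusted p = 1.46e-22) in CAST.

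Markers of cell types differed between the same WT groups. All 11 oligodendrocyte markers, of which Mbp was the most abundant, were lower in CAST, in WSB and in PWK than in B6, and their summed median was 6773 CPM in B6 against 4282, 4534 and 4443 CPM. Microglia markers (15 genes, Csf1r the most abundant) were mostly lower than in B6 too, in 12, 11 and 9 genes, with sums of 312 CPM in B6 and 249, 248 and 283 CPM in CAST, WSB and PWK. Endothelial markers were lower in 7, 7 and 6 of 7 genes and choroid plexus markers in 4, 1 and 4 of 5. Of the 12 neuron markers, CAST was above B6 in 2 and below in 7, among them the neurofilaments Nefl, Nefm and Nefh, WSB above in 1 and below in 5, and PWK above in 3 and below in 1. Astrocyte markers (10 genes) went both ways, with 6 higher and 3 lower in CAST, 1 and 6 in WSB and 4 and 3 in PWK. Immediate early genes, which mark recent activity, were lower in CAST than in B6, WSB or PWK in 11 of 11 genes each, with a summed median of 423 CPM in CAST against 703, 637 and 838 CPM. The part of these lists in the strain differences of the members was not tested.

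Markers of brain regions varied between strains and between mice of a strain, and the cause was not tested. The 7 hindbrain markers, led by Slc6a5, a glycine transporter, summed to medians of 61.1 CPM in B6, 48.1 CPM in CAST, 28.9 CPM in WSB and 80.6 CPM in PWK, and within WSB alone ran from 7.95 to 82.2 CPM. WSB was below PWK in 6 of these 7 genes. Cerebellum markers were higher than in B6 in 5, 5 and 7 of 10 genes for CAST, WSB and PWK, and lower in 2, 1 and 2. Cortex and hippocampus markers were higher in 5, 4 and 3 of 11 genes and lower in 3, 1 and 2. The 6 thalamus markers were higher than in B6 in 3, 3 and 4 and lower in 0, 3 and 0, and the 8 striatum markers higher in 2, 0 and 0 and lower in 1, 2 and 3. Olfactory bulb markers (5 genes) differed from B6 in 2, 1 and 0 genes and parvalbumin interneuron markers (6 genes) in 2, 1 and 2. No gene of any list was at 0 reads in a group of strain and genotype.

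Few members passed a test of the response to the transgenes, and a gene that did not pass is not shown to be unchanged. Rims1 rose in B6 and on average over the strains, Sv2a rose on average, and Syn2 rose in PWK. No postsynaptic gene passed the test in any strain. In B6, 1 of 25 presynaptic genes rose and 0 fell, where 0.215% of all genes rose and 0.00844% fell. In PWK, 1 rose and 0 fell (all genes 1.57% and 0.468%), and on average over the strains 2 rose and 0 fell (all genes 1.8% and 0.468%). At an unadjusted p under 0.05 there were 2 presynaptic genes in B6, 10 in PWK and 6 on average, where all genes had 1330, 2836 and 2736 of 23702. In CAST the count was 0 by edgeR and by DESeq2, where edgeR had 0.544% of all genes higher and 0.114% lower. At an unadjusted p under 0.05 there were 1 presynaptic and 0 postsynaptic genes in CAST, and 1848 of 23702 genes in all. WSB also had 0 by edgeR and by DESeq2 (edgeR over all genes 0.308% and 0.0675%), with 5 and 0 genes at an unadjusted p under 0.05 and 1826 of 23702 in all. For the 13 postsynaptic genes the count of 0 held with both tools, and 1, 0, 0 and 1 genes had an unadjusted p under 0.05 in B6, CAST, WSB and PWK. The median log2 response was 0.03, 0.03, 0.01 and 0.03 for the presynaptic and -0.01, -0.01, -0.02 and 0.02 for the postsynaptic genes in the same order.

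**Figure D3:**
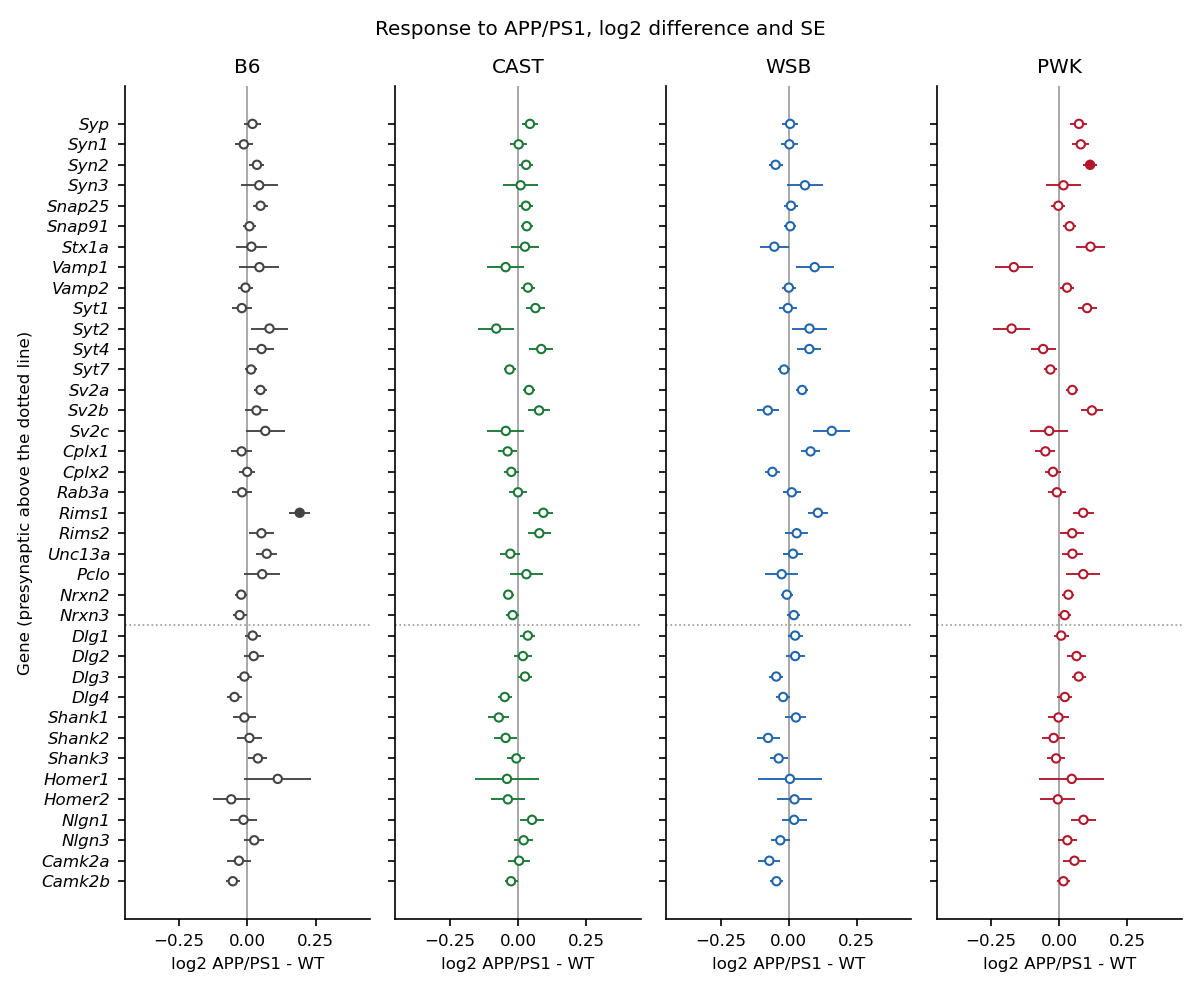
Fitted log2 difference of APP/PS1 from WT mice, with its SE, for each gene in each strain. Filled points passed the threshold of 0.05 after adjustment over all genes tested.

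In WT B6, Rims1 ran from 184 through 249 to 287 CPM, and in APP/PS1 mice of that strain from 249 through 283 to 328 CPM. The CAST carriers had 236, 253 and 274 CPM, the WSB carriers 202, 230 and 249 CPM and the PWK carriers 253, 278 and 302 CPM. Carriers exceeded the WT median in 9 of 10 B6, 11 of 12 CAST, 10 of 12 WSB and 11 of 12 PWK mice, while the ranges overlapped in each strain. The average response of Rims1 was 0.12 (SE 0.0190, edgeR adjusted p = 2.14e-06). It was 0.19 in B6 (SE 0.0393, edgeR adjusted p = 0.0042), 0.09 in CAST (edgeR adjusted p = 0.436), 0.11 in WSB (edgeR adjusted p = 0.313) and 0.09 in PWK (edgeR adjusted p = 0.309), and a difference among the strains did not pass (edgeR adjusted p = 0.801). The call of Rims1 in B6 was lost without B6 APP/PS1 Female 1 (0.16, edgeR adjusted p = 0.0577), in B6 mice fitted alone (0.19, edgeR adjusted p = 0.583), in females (0.13, edgeR adjusted p = 0.61) and in males (0.25, edgeR adjusted p = 0.0578).

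Sv2a, the vesicle protein bound by levetiracetam and by tracers of synapse density, rose by a small amount. WT and APP/PS1 medians were 588 and 602 CPM in B6, 598 and 625 CPM in CAST, 592 and 611 CPM in WSB and 636 and 661 CPM in PWK. In B6 the WT mice ran from 560 to 649 CPM and the carriers from 582 to 666 CPM, and in CAST from 575 to 672 CPM and from 594 to 660 CPM. WSB mice ran from 562 to 640 CPM and from 589 to 633 CPM, and PWK mice from 595 to 656 CPM and from 624 to 673 CPM. The genotypes overlapped in every strain, and 8 of 10, 11 of 12, 9 of 12 and 10 of 12 carriers exceeded the WT median. On average Sv2a rose by 0.05 (SE 0.0109, edgeR adjusted p = 0.00485), and no strain passed alone. Single-sex fits, with fewer mice, did not pass either, with 0.04 in females (edgeR adjusted p = 0.497) and 0.05 in males (edgeR adjusted p = 0.0661).

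Syn2, a synapsin that tethers reserve vesicles to actin, rose in PWK from 386, 439 and 467 CPM in WT to 445, 463 and 536 CPM in carriers. All 12 PWK carriers exceeded the WT median and 4 exceeded every WT mouse. The earlier single housing of the PWK carriers cannot be told apart from their genotype. In the other strains the WT and carrier medians of Syn2 were 438 and 448 CPM in B6 and 417 and 428 CPM in CAST. In WSB they were 424 and 407 CPM. Carriers exceeded the WT median in 7 of 10 B6 and 11 of 12 CAST mice, and 11 of 12 WSB carriers lay below it. B6 mice ran from 412 to 461 CPM (WT) and from 427 to 476 CPM (carriers), CAST mice from 381 to 448 CPM and from 404 to 443 CPM, and WSB mice from 391 to 436 CPM and from 382 to 426 CPM. The response was 0.11 in PWK (SE 0.0264, edgeR adjusted p = 0.00508), beside 0.04 in B6 (edgeR adjusted p = 1), 0.03 in CAST (edgeR adjusted p = 0.888) and -0.05 in WSB (edgeR adjusted p = 0.693). Within the 3 library sets the PWK means differed by 0.13, 0.17 and 0.08. With the region markers as covariates the PWK response of Syn2 was 0.08 (edgeR adjusted p = 0.0567), and it was 0.10 in females alone (edgeR adjusted p = 0.44) and 0.12 in males alone (edgeR adjusted p = 0.14), with fewer mice. For a difference among the strains the edgeR adjusted p of Syn2 was 0.0947, and DESeq2 called that difference. Compared in pairs of strains, the response of Syn2 was lower in WSB than in PWK by -0.16 (SE 0.0369, edgeR adjusted p = 0.0141). Pairs were planned only for members past the edgeR test over strains, and this p was not adjusted over the pairs.

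By the edgeR test over the 4 strains, 0 of the 38 members had a response that differed among them, where 0.473% of all genes had one. At an unadjusted p under 0.05 there were 4 presynaptic and 1 postsynaptic genes, and 2046 of 23702 in all. DESeq2 called 1 member and 197 genes in all. Between females and males of the WT mice, 0 members differed by edgeR and by DESeq2 (edgeR over all genes 0.456%), with 2 and 3 genes at an unadjusted p under 0.05 and 2845 in all. For a response that differed between the sexes the count was again 0 with both tools (edgeR over all genes 0.00422%), with 1 and 0 genes at an unadjusted p under 0.05 and 1677 in all.

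Against this, RNA of many microglia markers rose in the same carriers. Of the 15 microglia markers, 8, 9, 9 and 12 rose in B6, CAST, WSB and PWK, and 14 rose on average, led by Cst7 with 4.47 (SE 0.162, edgeR adjusted p = 1.35e-40). Of all genes, 0.215%, 0.544%, 0.308% and 1.57% rose in these strains and 1.8% on average. The summed median of the list went from 312 to 350 CPM in B6, 249 to 300 CPM in CAST, 248 to 282 CPM in WSB and 283 to 362 CPM in PWK. The astrocyte gene Gfap rose in each strain, by 0.43 on average (SE 0.0446, edgeR adjusted p = 2.36e-12), and it was the only gene of its list to do so. Of the transgene check genes, App rose in all 4 strains. Of the other presynaptic genes, 5 of 52 rose in PWK (all genes 1.57%) and 0 in the other strains. None of the 40 other postsynaptic genes passed in a strain. The 7 hindbrain markers had a median response of 1.10 in WSB, where 5 had an unadjusted p under 0.05 and 0 passed the adjustment by edgeR. Their medians were 0.20 in B6, -0.46 in CAST and -0.54 in PWK, with 0 genes at an unadjusted p under 0.05 in each. In PWK the cerebellum markers were lower in 10 of 10 genes (8 at an unadjusted p under 0.05, 0 passing), the oligodendrocyte markers in 11 of 11 (4 and 0), the immediate early genes in 11 of 11 (8 and 1) and the astrocyte markers in 7 of 10, with 5 of the 10 at an unadjusted p under 0.05. Cortex and hippocampus markers were higher in PWK carriers in 8 of 11 genes, with 6 of the 11 at an unadjusted p under 0.05 and 0 passing.

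Mice of the same group differed in how much hindbrain and how much cortex and hippocampus RNA they held, and many members moved with that. For each mouse and gene the group mean was taken off the log2 level, and each member was related to the mean of each of 18 lists over 93 mice, 684 relations in all with permutation p-values adjusted over them. Vamp1 rose with the hindbrain markers (r = 0.84, rho = 0.85), and its r was 0.81 without the 2 mice farthest out and 0.92, 0.80, 0.86 and 0.82 within B6 and the 3 other library sets. Sv2c (r = 0.78, rho = 0.81) and Syt2 (r = 0.73, rho = 0.73) did the same, with r of 0.77 and 0.70 without the 2 farthest mice and within-set r of 0.59, 0.87, 0.88 and 0.78 for Sv2c and 0.87, 0.61, 0.76 and 0.80 for Syt2. All 3 genes are known from brainstem neurons. Camk2a, a kinase of forebrain excitatory neurons, ran the other way (r = -0.62, rho = -0.65, -0.61 without the 2 farthest, and -0.44, -0.72, -0.67 and -0.67 within the sets). Each of these relations had the smallest p that the permutations can give, 1e-05, which is 7.95e-05 after adjustment for r and 7.69e-05 for rho.

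Cortex and hippocampus markers, of which Rasgrf2 was the most abundant, went with another set of members. Sv2b had the strongest relation (r = 0.79, rho = 0.77, 0.76 without the 2 farthest mice, and 0.66, 0.86, 0.81 and 0.80 within the library sets), followed by Syt1 (r = 0.73, rho = 0.72, 0.70 without the 2 farthest, and 0.56, 0.83, 0.83 and 0.73 within the sets). Stx1a (r = 0.69, rho = 0.75, 0.70 without the 2 farthest, and 0.40, 0.88, 0.71 and 0.82 within the sets) came next, and all 3 had adjusted p of 7.95e-05 for r and 7.69e-05 for rho.

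**Figure D4:**
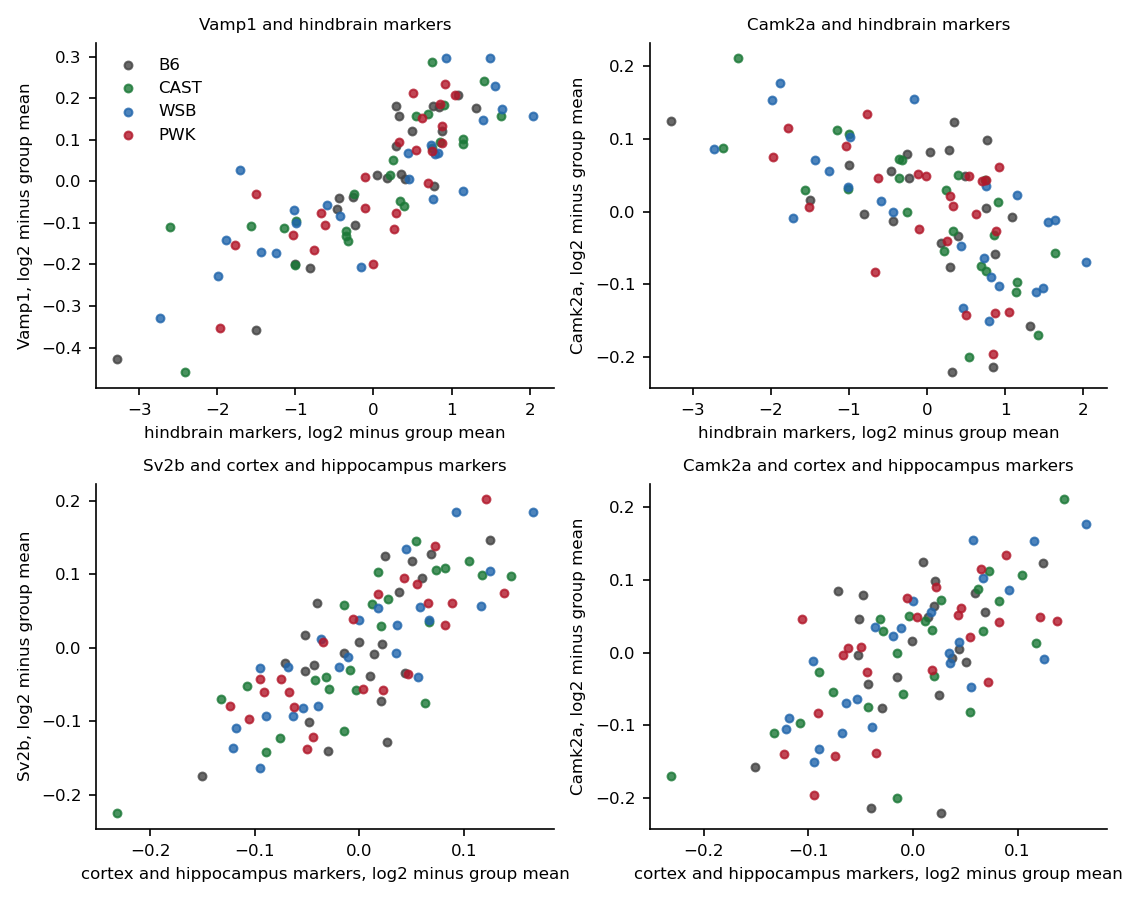
Log2 level of Vamp1, Camk2a and Sv2b in each mouse against the mean log2 level of hindbrain or of cortex and hippocampus markers. All values have the mean of the mouse's group of strain, genotype and sex taken off, and colours give the strain.

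Counts of related members were taken for each list. At an adjusted p under 0.05, all 13 postsynaptic genes fell with the hindbrain markers (median r -0.32), while 7 presynaptic genes rose with them and 9 fell. Of the 7937 genes at least as abundant as the least abundant member, 17.5% rose and 15.8% fell with an r at least as far from 0 as that of the weakest member counted (0.23). With the cortex and hippocampus markers, 11 of 13 postsynaptic genes rose (median r 0.40), and 14 of 25 presynaptic genes rose and 3 fell (median r 0.34), where by the same measure 21.5% of the 7937 genes rose and 9.22% fell. For the oligodendrocyte markers the counts were 9 falling postsynaptic genes, and 7 rising and 9 falling presynaptic genes, with Vamp1 (r = 0.83) and Cplx1 (r = 0.81) foremost and 26.4% rising and 20.1% falling of the 7937 genes. Astrocyte markers went with a fall of 8 postsynaptic and 10 presynaptic genes and a rise of 0 and 3, and neuron markers with a fall of 6 and 4 and a rise of 0 and 7. Of the 7937 genes, 12.1% rose and 20.7% fell with the astrocyte markers and 19.3% and 7.89% with the neuron markers. The other postsynaptic genes rose with 12 of the 13 members of their own side and 16 presynaptic members, while 5 presynaptic members fell with them. With the other presynaptic genes 11 postsynaptic and 15 presynaptic members rose and 0 fell. The shares of the 7937 genes were 27.5% and 16.9% for the other postsynaptic and 21.6% and 4.18% for the other presynaptic genes. Weaker counts, as rising and falling members, were 8 and 1 presynaptic and 5 and 1 postsynaptic genes for striatum. They were 5 and 4 and then 1 and 0 for microglia, and 4 and 3 and then 0 and 1 for cerebellum. Parvalbumin interneurons had 5 and 3 and then 2 and 2. By the same measure, 22.5% of the 7937 genes rose and 7.99% fell with striatum markers, and 13.25% and 10.75% with microglia markers. Shares for cerebellum were 9.55% and 7.38%, and for parvalbumin interneurons 29.2% and 16.9%. Olfactory bulb counts were 1 and 5 and then 1 and 0, and for endothelium 0 and 4 and then 0 and 0. For choroid plexus they were 0 and 1 and then 0 and 1, and for thalamus 1 and 1 and then 0 and 0. Immediate early genes had 1 and 2 and then 0 and 0. Shares of the 7937 genes were 3.93% and 5.985% (olfactory bulb), 2.91% and 4.96% (endothelium) and 2.34% and 2.86% (choroid plexus). Thalamus had 0.617% and 0.189%, and immediate early genes had 5.49% and 4.04%. The transgene check genes gave 8 and 1 and then 3 and 1. The sex check genes gave 0 and 0 and then 1 and 0. Of the 7937 genes, 26.8% rose and 9.54% fell with the transgene check genes and 3.34% and 2.94% with the sex check genes. The cause of these relations was not tested.

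Members were also related to each other. Over 93 mice, with group means taken off, the 78 postsynaptic pairs had a median r of 0.36, with 63 positive, from -0.26 for Dlg4 and Homer2 to 0.80 for Shank1 and Shank2. The 300 presynaptic pairs had a median r of 0.10, from -0.69 for Rab3a and Nrxn3 to 0.86 for Vamp1 and Syt2. Across the synapse, 325 pairs had a median of 0.17, from -0.74 for Rab3a and Homer2 to 0.89 for Pclo and Dlg2. These r are a description without a test, and no r of a pair is given without the mice farthest out. In B6 the lowest Pclo was 250 CPM (WT) and 286 CPM (APP/PS1), beside medians of 506 and 536 CPM. The lowest Dlg2 in the same groups was 303 and 346 CPM, beside medians of 454 and 457 CPM. Between mice of a group the median SD in log2 was 0.085 (presynaptic) and 0.087 (postsynaptic), near the 0.088 of the 7937 genes at least as abundant as the least abundant member, and 0.204 over all genes.

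Promoter sequence was read for 18 presynaptic and 9 postsynaptic genes from RefSeq on GRCm38.p6, from 250 bases before to 50 bases after each start, and is given as a description. The GC box GGGCGG occurred in 17 of 27 presynaptic promoters (63.0%) and 7 of 20 postsynaptic promoters (35.0%), with 35.7% of 32851 promoters in all. TATAAA occurred in 2 (7.41%) and 3 (15.0%), with 13.6% in all. The cyclic AMP response element TGACGTCA was present in 1 presynaptic promoter (3.70%) and in 0 postsynaptic promoters, with 1.79% in all.

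That promoter is the one of Syn1, on the minus strand of X in RefSeq GRCm38.p6, upstream of the transcribed region. The site is shown because it is the only full cyclic AMP response element in the member promoters that were read: chrX:20921059-20921088 reads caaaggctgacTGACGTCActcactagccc, with the motif starting at -159.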

How the data were processed

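RNA was sequenced in 93 left hemispheres, 1 library per mouse, with strain, genotype, sex and replicate number read from the sample titles. The notes of the authors name Trimmomatic, STAR, HTSeq and GRCm38 (mm10), without versions, which are not given in the sources used here, and their methods text adds genomes with strain variants for CAST, PWK and WSB. Each deposited file holds HTSeq counts. Of all reads, 12.2% to 18.2% fell on no gene, 2.98% to 5.26% on several genes and 8.91% to 12.7% mapped to several places. A gene was tested when 10% or more of the mice had 10 or more reads of it (23702 genes). The test was the quasi-likelihood F of edgeR 4.0.16 in R 4.3.3, on 16 group means after TMM scaling. Contrasts weight females and males equally, and p-values were adjusted by Benjamini-Hochberg over the genes tested, with a threshold of 0.05. CPM refer to library sizes after TMM scaling, log2 CPM used a prior count of 2, and exon lengths are unions of GENCODE M21 exons. At these depths every member had at least 643 reads in each mouse, so that the spread between mice, not counting, sets most of the error.

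Relations to the marker lists used 100000 permutations of mice within groups, in Python 3.11.15 with numpy 2.4.6, scipy 1.17.1 and pandas 2.3.3, and figures used matplotlib 3.10.9. All members could be named. Values in mice are given for the 6 presynaptic and 4 postsynaptic genes with the largest WT gap past the test over strains and for up to 8 genes past a response test, and up to 4 genes could be named from each further list. Those lists were other presynaptic and other postsynaptic genes, neuron, astrocyte, microglia, oligodendrocyte, endothelial and choroid plexus markers, cerebellum, cortex and hippocampus, striatum, thalamus, hindbrain and olfactory bulb markers, parvalbumin interneuron markers, immediate early genes, transgene check genes and sex check genes. Members and lists were chosen with earlier results of these data known, and the relations to marker lists were examined after seeing the data.

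Alternatives were the size factors of DESeq2 1.42.0, its test, no count filter, a covariate for library set (between wild-derived strains, since the B6 set holds only B6), a block for replicate number, single sexes, only the strains compared, leaving out B6 APP/PS1 Female 2 with B6 WT Male 5, and each mouse of the groups of 4 and 5 in turn. The hindbrain and the cortex and hippocampus markers as covariates, and leaving out PWK APP/PS1 Female 3, were added after seeing the data. The fit was tested on simulated data. No test over the set of members was made.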

Additional observations from a re-analysis of the deposited data

Results flagged for a closer look

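Among 192 combinations of a named gene and a group of strain, genotype and sex, 17 held a mouse set apart from the rest by Dixon's ratio, and chance flags about 1 in 20 groups. B6 WT Male 5 was that mouse for 5 genes: Stx1a (156 CPM, nearest other mouse 116 CPM) and Sv2a (649 CPM, nearest 590 CPM) were high in it, and Rims2 (63.5 CPM, nearest 94.3 CPM), Homer2 (55.2 CPM, nearest 80.3 CPM) and Shank1 (456 CPM, nearest 640 CPM) were low. In WSB WT Female 1, Stx1a was low (99.3 CPM, nearest 114 CPM) and Sv2c high (208 CPM, nearest 168 CPM). WSB WT Male 2 was high in Syt4 (239 CPM, nearest 209 CPM) and low in Syn2 (391 CPM, nearest 423 CPM), and WSB WT Male 3 was high in Sv2a (640 CPM, nearest 599 CPM). In PWK, WT Female 5 was high in Rims2 (116 CPM, nearest 112 CPM), WT Female 4 high in Nlgn3 (63.3 CPM, nearest 55.5 CPM), APP/PS1 Female 3 low in Shank3 (280 CPM, nearest 303 CPM) and APP/PS1 Male 2 low in Sv2a (637 CPM, nearest 658 CPM). CAST APP/PS1 Male 4 was high in Rims2 (122 CPM, nearest 111 CPM), B6 APP/PS1 Female 4 low in Shank3 (245 CPM, nearest 266 CPM) and WSB APP/PS1 Female 6 low in Syn2 (382 CPM, nearest 406 CPM).

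The response of Syn2 to APP/PS1 differed between WSB and PWK by -0.16 (SE 0.0369, edgeR adjusted p = 0.0141), the only difference of a response between 2 strains that passed among the members.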

How the results depend on the processing

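Of 115 WT strain differences called in members, 114 kept their call and direction with the size factors or the test of DESeq2, 100 with no count filter, 110 without 2 B6 mice (57 of the 62 differences from B6), 103 in fits of only the strains compared and 96 with the region markers as covariates. A covariate for library set can be fitted only between the wild-derived strains, where 51 of 53 calls were kept. The PWK female low in Xist, left out after seeing the data, is in no WT group, and the 3 responses that include it were kept without it. In a single sex, with fewer mice, 67 (females) and 72 (males) were kept. With the replicate block, 115 of 115 and all 4 responses were kept, and mice of the same number were no more alike (mean r = 0.00812 over 45 pairs) than mice of different numbers (-0.00162 over 225 pairs). Of the mice left out in turn, only the PWK WT females are in a WT group, and without each of them 285 of 300 calls of differences with PWK were kept. The ranges of called members were 20 to 24 (CAST minus B6), 19 to 21 (WSB minus B6), 20 to 22 (PWK minus B6), 21 to 23 (CAST minus PWK), 15 to 19 (WSB minus PWK) and 15 to 16 (CAST minus WSB), and strain pairs without PWK can change there only through the shared fit and the adjustment. Reversed were Sv2b in WSB minus PWK in males only (0.0071, edgeR adjusted p = 0.936) and Dlg3 in WSB minus PWK with the region markers, an alternative chosen after seeing the data (-0.0103, edgeR adjusted p = 0.719), and the cause was not tested. Counts of members moved to 13 in CAST minus B6 and 10 in CAST minus PWK in females only, to 14 in PWK minus B6 in males only, and to 11 in WSB minus PWK in females only and in males only. The response in B6 moved to 0 called members in females only, in males only, in B6 alone and without B6 APP/PS1 Female 1, a range of 0 to 1. For the response in PWK the count was 0 in females only, in males only and with the region markers, and 2 (Syn2 and Syt1) in PWK alone, and the average response had 1 in females only and 1 in males only. Without 2 B6 mice the average response of Rims2 passed as well (0.05, edgeR adjusted p = 0.0429). A response that differed among strains was called for 1 member, Syn2, by the DESeq2 test and with the library set as a covariate, and the sexes differed in 1 member, Syp, without 2 B6 mice. Of 506 medians over members, 492 moved by less than the median SE. A response that did not pass was not shown to be absent.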

Other observations

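The endothelial gene Ly6c1 was nearly absent in WSB, with a log2 difference of -9.74 from B6 (SE 0.146, edgeR adjusted p = 5.41e-72) in WT mice, whereas the other endothelial markers of that strain were lower by less. Clec7a, a receptor of activated microglia, was lower in WT CAST (-2.23, edgeR adjusted p = 9.51e-10) and PWK (-2.53, edgeR adjusted p = 1.08e-10) than in B6, and rose with APP/PS1 by 3.26 (edgeR adjusted p = 1.11e-14) and 3.66 (edgeR adjusted p = 3.33e-16) in those strains.

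Lamp5, a marker of cortical interneurons and upper layer cells, was below B6 in all 3 wild-derived strains, by -0.53 in CAST (edgeR adjusted p = 6.4e-17), -0.39 in WSB (edgeR adjusted p = 3.83e-11) and -0.70 in PWK (edgeR adjusted p = 1.21e-22), while Wfs1, a gene of CA1 pyramidal cells, was above B6 in each, by 0.68, 0.95 and 0.21. Both are among the 11 cortex and hippocampus markers, of which 5, 4 and 3 were higher than in B6 and 3, 1 and 2 lower in CAST, WSB and PWK. A difference in numbers of cells was not tested.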
